A study of Mus musculus with 8 samples.

Results

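Phase II conjugating enzymes join a small polar group to a foreign compound, a hormone or a metabolite, which makes the product easier to excrete. Glutathione S-transferases (Gst, and the membrane-bound Mgst) use glutathione, UDP-glycosyltransferases (Ugt) use a nucleotide sugar such as UDP-glucuronate, and sulfotransferases (Sult) use the sulfate donor PAPS. In the kidney these enzymes are known chiefly from the proximal tubule, where they act beside the transporters that take up and secrete organic anions. The genes described here were chosen by symbol, as those that begin with Gst and a class letter, Mgst, Ugt or Sult followed by a number. They are 52 of the 16593 genes with a named probe, measured by 72 of 23978 named probes, and comprise 21 Gst, 3 Mgst, 16 Ugt and 12 Sult genes.

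Transcript levels were measured in cells of renin lineage (CoRL) of 8 mice, sorted from kidney cortex by ZsGreen fluorescence. Each mouse had 1 array of the Illumina MouseRef-8 BeadChip kind. All 8 mice carried the same Ren1cCre and Rs-ZsGreen-R alleles, so that Cre driven from the renin locus removed a stop cassette at Rosa26 and ZsGreen stayed on in any cell that makes or once made renin. The 4 day 5 FSGS mice (focal segmental glomerulosclerosis, a model of podocyte loss) received 2 intraperitoneal doses of sheep anti-glomerular antibody, each 12 mg per 20 g of body weight and 24 h apart, and were studied 5 days after the second dose. The 4 uninjured mice were age matched and received no antibody, and no age is given. A ZsGreen sort takes every descendant of a cell that once expressed renin, also one that no longer does. Because the RNA comes from sorted bulk cells, fewer cells of a type and less RNA per cell cannot be told apart in any result here.

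The label was checked against marker genes. Of 17 measured renin cell and mural cell markers, 5 were detected on no array, among them Pdgfrb, Tagln and Foxd1. Acta2 and Rgs5, detected on all 8, were the only 2 of the 17 detected on all 4 uninjured arrays. Ren1 and Akr1b7 were not analysed here, for want of a matching named probe. The arrays also carried transcripts of other kidney cells. Of 44 measured proximal tubule markers, 38 were detected on all 4 uninjured arrays. The phosphate transporter Slc34a1 and the endocytic receptor Lrp2 were among those, both detected on all 8 arrays. Day 5 FSGS replicate 3 stood apart from the other day 5 mice, with a score of -0.98 on the first principal component against 33.7 to 69.9 in the other 3 and -50.4 to -28.5 in the uninjured mice. Uninjured replicate 1 had the fewest detected probes, 5793 at a detection p-value under 0.01, against 8365 to 12052 in the other 7.

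Of the 52 enzymes, 31 were detected on at least 1 array and 29 on all 4 arrays of a group. The remaining 21 were detected on no array, and 9 of these were sulfotransferases. Levels are given on the log2 scale after background correction and quantile normalization, and a change is the day 5 mean minus the uninjured mean. The levels of different genes come from different probes and were not compared with each other.

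Most of these enzymes had lower levels at day 5. The day 5 mean was below the uninjured mean in 42 of 52 genes (55.3% of all genes) and above it in 10 (44.7% of all genes), with a median change of -0.49 on the log2 scale against -0.03 over all genes. At the study's threshold, an adjusted p no larger than 0.01, 0 members were called lower (background 0.38% of all genes) and 0 higher (background 1.88%). At 0.05, 5 members (9.62%) were called lower (background 5.8%) and 0 higher (background 8.55%). The 5 were Gsto2, Gstk1, Ugt2b38, Ugt8a and Ugt2b34. At an unadjusted p under 0.05, 24 members (46.2%) were lower against 15.5% of all genes, and 0 were higher against 15%. In 12 members (23.1%) all 4 day 5 values lay below all 4 uninjured values, against 9.6% of all genes, and in 0 they lay above, against 10.4%. By the Bayesian test that the study used, rebuilt here on the same levels, 12 members (23.1%) were called lower at 0.01 (background 3.83%) and 21 (40.4%) at 0.05 (background 7.42%). The limma share at 0.05 thus lay nearer to its background than the shares by the Bayesian test, at the unadjusted threshold or without overlap.

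The lower levels were not equal in the 4 day 5 mice. Among the 31 detected members, the median deviation from the uninjured mean was -0.75 in day 5 FSGS replicate 1, -1.18 in replicate 2, -0.25 in replicate 3 and -1.70 in replicate 4. Replicate 3 had the highest day 5 level in 26 of the 31 and replicate 4 the lowest in 24. Replicates 1, 2 and 4 lay below all 4 uninjured mice in 27, 27 and 28 of the 31, and replicate 3 in 12. Replicate 3 lay within the uninjured range in 19. As a background, replicates 1, 2 and 4 jointly lay below all 4 uninjured mice in 16% of all genes. The joint share was 25.9% where either group had the gene detected in each of its 4 mice. A joint share can only be equal to or smaller than the share for 1 mouse, so it is not a direct match to the counts above. Among the 29 members detected on all 4 arrays of a group, 9 (31.0%) had all day 5 values below all uninjured values. The matching share was 15.9% of all genes so detected. Without day 5 FSGS replicate 3, 10 members were called lower at 0.01 (background 4.28%) and 21 at 0.05 (background 10.5%). Those 10 were Gsta1, Gsta2, Gsta3, Gsta4, Gstk1, Gsto2, Gstt1, Sult1d1, Ugt2b34 and Ugt2b38. With any other single mouse left out, 0 members were called at 0.01. In those fits 0% to 0.0121% of all genes were called lower and 0% to 0.223% higher. Day 5 FSGS replicate 3 was the highest day 5 mouse in most detected members, so leaving it out lowers their day 5 means. Calls over all genes at 0.01 also rose in both directions without replicate 3. The share called lower went from 0.38% with no mouse left out to 4.28%, and the share called higher from 1.88% to 7.15%. How far the lower means of the members account for the 10 calls without replicate 3 was not tested. Without both that mouse and uninjured replicate 1, a choice made after the data were seen, 6 were called at 0.01 (background 3.79%) and 20 at 0.05 (background 10.8%).

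**Figure D1:**
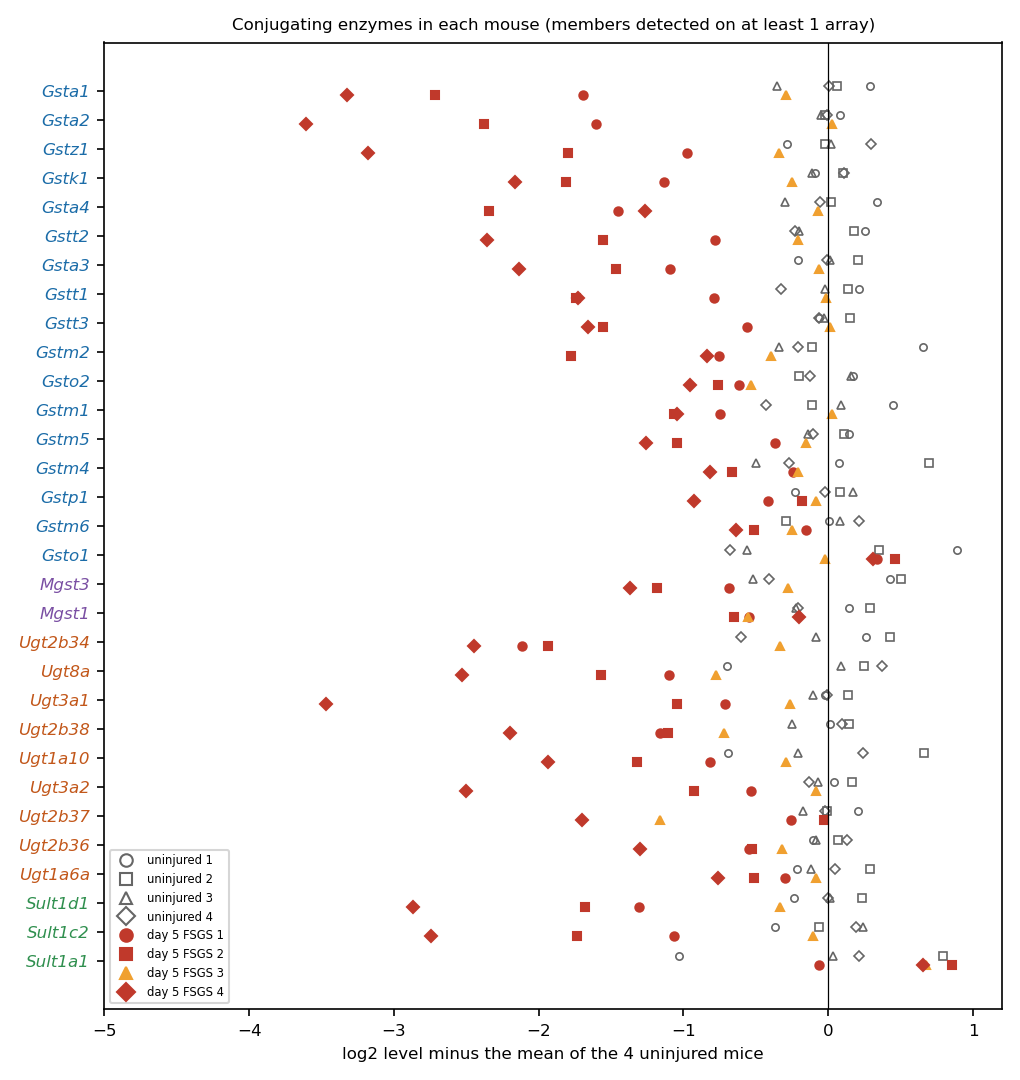
Level of each of the 31 detected enzymes in each mouse, as the log2 level minus the mean of the 4 uninjured mice (x axis), with 1 gene per line (y axis) and 1 symbol per mouse. Day 5 FSGS replicate 3 (orange triangles) is the highest day 5 mouse in 26 genes, and replicate 4 (red diamonds) the lowest in 24.

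Among the glutathione S-transferases with more than 1 gene in a class, the alpha class had the lowest median change. All 4 alpha genes had lower means with a median change of -1.59, and all 4 passed the unadjusted threshold but none the adjusted one at 0.05. The levels of Gsta1, which conjugates electrophiles and reduces organic peroxides, were 9.96, 9.74, 9.32 and 9.68 in uninjured mice 1 to 4 and 7.98, 6.96, 9.38 and 6.35 in day 5 mice 1 to 4. Day 5 replicate 3 lay inside the uninjured range and the other 3 day 5 mice lay below it. The change in Gsta1 was -2.01 (SE 0.58, adjusted p = 0.053), or 4.02-fold lower. The levels of Gsta2, a closely related alpha enzyme, were 10.79, 10.69, 10.67 and 10.71 in uninjured mice and 9.11, 8.34, 10.74 and 7.11 at day 5. The uninjured mice lay close together while the day 5 mice spread widely, with replicate 3 inside the uninjured range, and the change was -1.89 (SE 0.65, adjusted p = 0.090). Gsta3 and Gsta4, of which Gsta4 acts on the lipid peroxidation product 4-hydroxynonenal, changed by -1.19 and -1.28 (adjusted p = 0.074 and 0.078). The probes of Gsta3 differed, with -1.71 for a probe detected on all 4 arrays of each group. The other, detected on 2 uninjured arrays and 1 day 5 array, changed by -0.67. Probes of the alpha genes may share signal where their transcripts are alike, and probe positions were not checked here.

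Gstz1 and Gstk1, of other soluble classes, were highest in replicate 3 and lowest in replicate 4 among the day 5 mice. Gstz1, the maleylacetoacetate isomerase of tyrosine breakdown, had levels of 9.90, 10.17, 10.21 and 10.48 in uninjured mice and 9.21, 8.39, 9.85 and 7.01 at day 5. The groups did not overlap, and the change was -1.57 (SE 0.54, adjusted p = 0.087), or -1.04 without day 5 FSGS replicate 4. Gstk1, the kappa enzyme of mitochondria and peroxisomes, had levels of 9.87, 10.07, 9.85 and 10.07 in uninjured mice and 8.83, 8.16, 9.72 and 7.80 at day 5. Its groups did not overlap, and it fell by 1.34 (SE 0.37, adjusted p = 0.047), or 2.53-fold. The adjusted p of Gstk1 was 0.099 after scaling to a common median and 0.132 without day 5 FSGS replicate 2.

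Gsto2, an omega enzyme that reduces dehydroascorbate, had the smallest adjusted p of the 52 genes. Its levels were 6.03, 5.66, 6.01 and 5.73 in uninjured mice and 5.24, 5.09, 5.32 and 4.90 at day 5, and all 4 day 5 mice lay below all 4 uninjured mice. It fell by 0.72 (SE 0.13, adjusted p = 0.015), and the change was -0.26 without background correction and -0.23 with the authors' processed table. The gene was dim: of its probes, 1 was detected on no array and changed by -0.11, and the other was detected on 2 uninjured arrays and 1 day 5 array and changed by -1.33. Gsto1, the other omega enzyme, had 6.74 to 8.30 in uninjured mice and 7.39 to 7.88 at day 5, a change of 0.27 (95% interval -0.50 to 1.05, adjusted p = 0.645).

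In the theta and mu classes no gene passed the adjusted threshold. Gstt1, Gstt2 and Gstt3 changed by -1.07, -1.23 and -0.94, with adjusted p-values of 0.093, 0.088 and 0.112. All 6 mu genes had lower means, with a median of -0.59, and Gstm2 and Gstm5 did not overlap between groups. The means of Gstm2 were 8.82 ± 0.45 in uninjured mice and 7.88 ± 0.59 at day 5 (SD, n = 4 each, adjusted p = 0.089). Gstm1 changed by -0.71, but its probes disagreed, with -1.29 for the brighter probe (adjusted p over all probes = 0.020) and -0.13 for a probe detected on 1 array. Gstp1, the pi enzyme, changed by -0.40 (95% interval -0.84 to 0.04). Gstm3, Gstp2, Gstp3 and Gstt4 were detected on no array.

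Both detected membrane-bound transferases had lower means. Mgst1, which protects membranes against lipid peroxides, had levels of 7.41, 7.55, 7.04 and 7.05 in uninjured mice and 6.72, 6.61, 6.71 and 7.06 at day 5. Here replicate 4, not replicate 3, was the highest day 5 mouse and lay within the uninjured range, and the change was -0.49 (SE 0.16, adjusted p = 0.074), or -0.16 after scaling to a common median. Mgst3, which can form leukotriene C4, had levels of 8.89, 8.96, 7.94 and 8.05 in uninjured mice and 7.78, 7.28, 8.18 and 7.09 at day 5. The groups overlapped through day 5 replicate 3, and the change was -0.88 (SE 0.32, adjusted p = 0.104), or -0.55 after the same scaling. Mgst2 was detected on no array.

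All 16 UDP-glycosyltransferases had lower means at day 5, with a family median of -0.73. In 6 of them (37.5%) all day 5 values lay below all uninjured values, as in 9.6% of all genes. Of these 6, Ugt2a1 and Ugt2a2 were detected on no array. Ugt2b38, a glucuronidating enzyme of the 2B subfamily, had levels of 10.47, 10.60, 10.20 and 10.55 in uninjured mice and 9.29, 9.35, 9.73 and 8.26 at day 5. The groups did not overlap, and it fell by 1.30 (SE 0.29, adjusted p = 0.024), or 2.46-fold. Ugt2b34, of the same subfamily, had levels of 8.09, 8.26, 7.75 and 7.23 in uninjured mice and 5.72, 5.89, 7.50 and 5.39 at day 5. Day 5 replicate 3 lay within the uninjured range and the others well below it. Ugt2b34 fell by 1.71 (SE 0.45, adjusted p = 0.040), or 3.27-fold, and its change was -0.77 without background correction and -0.71 with the authors' processed table.

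Ugt8a, the ceramide galactosyltransferase that makes galactosylceramide, had levels of 8.75, 9.70, 9.54 and 9.82 in uninjured mice and 8.35, 7.89, 8.68 and 6.92 at day 5. The groups did not overlap, but uninjured replicate 1 lay close to the highest day 5 mouse. It fell by 1.49 (SE 0.39, adjusted p = 0.039), or 2.82-fold. After scaling to a common median the adjusted p-values of Ugt2b38, Ugt2b34 and Ugt8a were 0.064, 0.055 and 0.114, and without day 5 FSGS replicate 2 they were 0.062, 0.114 and 0.106.

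Ugt3a1, whose human counterpart uses UDP-N-acetylglucosamine, had levels of 11.03, 11.19, 10.95 and 11.05 in uninjured mice and 10.34, 10.01, 10.79 and 7.58 at day 5. The groups did not overlap, but replicate 4 lay far below the other day 5 mice, and the change of -1.37 (SE 0.62, adjusted p = 0.174) did not pass the threshold. Without that mouse the change was -0.67 (adjusted p = 0.070). Ugt3a2 gave -1.01 with the same mouse lowest (9.74 against 11.31 to 12.16 in the other 3). Ugt2b36 changed by -0.67 (adjusted p = 0.062), the mean of a detected probe at -1.34 and a probe detected on no array at 0.00. Ugt1a10 and Ugt1a6a, glucuronidating enzymes whose transcripts come from alternative first exons of a shared locus and may share probe signal, changed by -1.09 and -0.41 (adjusted p = 0.102 and 0.145). The Ugt1a6a value is the mean of a detected probe at -0.75 and probes detected on no array at -0.35 and -0.15. Across the 9 detected Ugt genes, day 5 replicate 4 was the lowest mouse in 9 and replicate 3 the highest in 8.

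Only 3 of 12 sulfotransferases were detected, with a lower mean in 2 of them and a higher mean in 1. The family median was -0.02, and it was -0.25 after scaling to a common median and -0.60 after scaling to a common 75th percentile, settings that moved the median of all genes to -0.18 and -0.52. Sult1d1, which in the mouse sulfates catecholamines and related amines, had levels of 10.19, 10.66, 10.44 and 10.43 in uninjured mice and 9.12, 8.75, 10.09 and 7.56 at day 5. The groups did not overlap, and the change was -1.55 (SE 0.46, adjusted p = 0.057). Sult1c2, which acts on small phenols, had levels of 9.47, 9.77, 10.07 and 10.02 in uninjured mice and 8.77, 8.10, 9.73 and 7.09 at day 5. The groups overlapped through replicate 3, and the change was -1.41 (SE 0.49, adjusted p = 0.092).

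Sult1a1, the phenol sulfotransferase, had a higher mean at day 5. Its levels were 6.50, 8.33, 7.57 and 7.75 in uninjured mice and 7.47, 8.39, 8.21 and 8.19 at day 5, and the groups overlapped. The change was 0.53 (SE 0.37, 95% interval -0.33 to 1.38, adjusted p = 0.395), and 0.18 without uninjured replicate 1, its lowest mouse. Without a test of the difference between members, the opposite signs of Sult1a1 and Sult1d1 are given as values only.

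**Figure D2:**
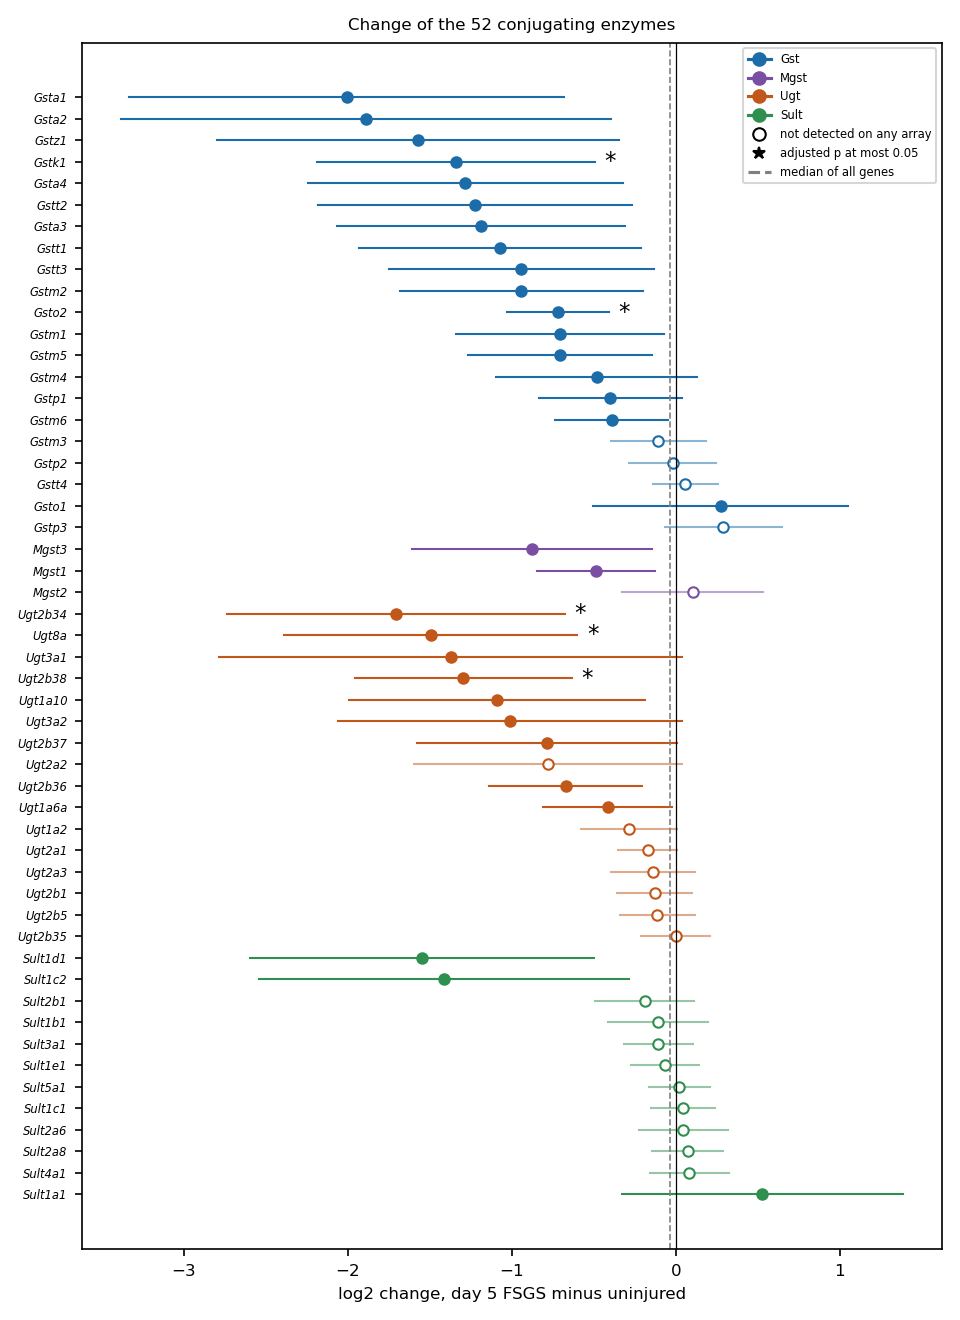
Change of each of the 52 enzymes, as the fitted log2 day 5 mean minus uninjured mean (x axis), with 1 gene per line (y axis) in the order Gst, Mgst, Ugt and Sult. Points are the change, lines the 95% interval, open points genes detected on no array and stars the 5 genes called lower at 0.05; the dashed line is the median of all genes, -0.03.

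Most markers of kidney tubule cells also had lower means at day 5. All 44 measured proximal tubule markers had lower means at day 5 (55.3% of all genes), with a median of -1.23. Of these, 4 were called lower at 0.01 (background 0.38%) and 17 at 0.05 (background 5.8%). The mean level of the proximal tubule markers was 9.30 to 9.68 in uninjured mice and 6.96 to 8.94 at day 5. Replicate 3 was the highest and replicate 4 the lowest, as in the medians over the 31 detected enzymes. By family median over all members, replicate 2 was the lowest day 5 mouse for Gst, Mgst and Sult, and replicate 4 for Ugt. Replicate 3 was the highest for each family but Mgst, where replicate 4 was. Of the proximal tubule markers, 1 (Slc4a4) was detected on no array. The 17 markers of the loop, distal tubule and collecting duct had a median of -1.04. Of these, 2 were called lower at 0.01 (background 0.38%) and 6 at 0.05 (background 5.8%). Their mean levels were 7.75 to 8.47 in uninjured mice and 6.70 to 7.57 at day 5. Here replicate 2 was the lowest day 5 mouse, at 6.70 against 6.83 in replicate 4.

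Macrophage and monocyte markers moved the other way. Of 34 measured, 33 had higher means at day 5 (44.7% of all genes), with a median of 2.33. At 0.01, 15 were called higher (background 1.88%), and at 0.05, 29 (background 8.55%). Their mean level was 6.79 to 7.33 in uninjured mice and 8.38 to 9.79 at day 5, with replicate 3 the lowest and replicate 4 the highest. The 17 renin and mural cell markers had a median of 0.17, with 1 called higher at 0.05 (Des, background 8.55%). Their mean levels were 5.88 to 6.14 in uninjured mice and 5.65 to 6.44 at day 5. Means were also higher in most endothelial (14 of 15, median 0.61), podocyte (7 of 9, 0.47), lymphocyte (11 of 14, 0.33) and neutrophil markers (8 of 10, 0.58). Of these lists 1, 2, 3 and 1 markers were called higher at 0.05 (background 8.55%). By list median, endothelial markers reached 1.30 in day 5 replicate 3, against 0.02 to 0.51 in the other day 5 mice. Neutrophil markers reached 1.09 in replicate 4, against 0.01 to 0.10. In the lymphocyte and neutrophil lists 4 markers each were detected on no array. The part of these other cells in the lower enzyme levels was not tested.

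**Figure D3:**
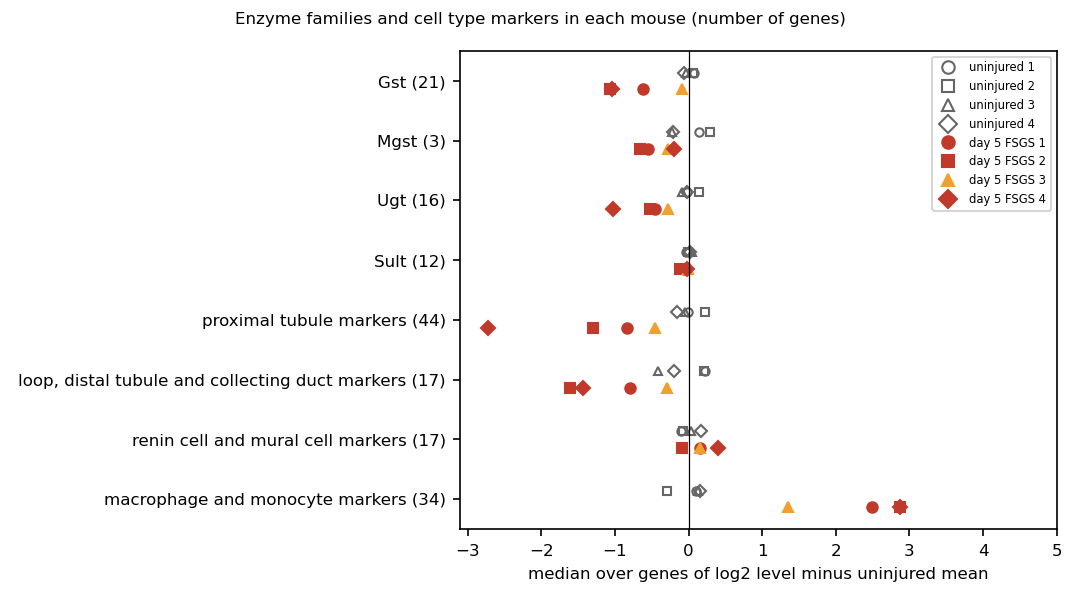
Median over the genes of each enzyme family or marker list of the log2 level minus the uninjured mean (x axis), with 1 family or list per line (y axis, number of genes in brackets) and 1 symbol per mouse. Day 5 FSGS replicate 4 lies lowest for the proximal tubule markers (-2.73) and the Ugt family, and replicate 3 (orange) lies nearest to 0 for the proximal tubule markers (-0.46).

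Genes that feed and follow conjugation were read from lists of known pathway members. Of 7 genes of glutathione synthesis and recycling, 1 was called lower at 0.05 (background 5.8%) and 0 higher (background 8.55%), with a list median of -1.02. This was Gclc, the catalytic subunit of the enzyme that limits glutathione synthesis, with levels of 8.39, 8.62, 8.34 and 8.76 in uninjured mice and 7.53, 7.29, 7.94 and 6.92 at day 5. The groups did not overlap, and it fell by 1.11 (SE 0.21, adjusted p = 0.016). The mercapturate pathway trims glutathione conjugates to mercapturic acids. Of its 8 measured genes, 1 was called lower and 1 higher at 0.05 (background 5.8% and 8.55%). Dpep1, the brush border dipeptidase of the proximal tubule, fell by 1.81 (SE 0.40, adjusted p = 0.023). Dpep2, a dipeptidase of leukocytes, was not detected on any uninjured array and rose at least 1.01-fold (adjusted p = 0.010), with measured means of 4.86 in uninjured mice and 6.42 at day 5.

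The genes of the other cosubstrates went in both directions. Among 5 genes of UDP-glucuronate supply and glucuronide cleavage, Slc35d1, which carries UDP-glucuronate into the endoplasmic reticulum, fell by 1.07 (SE 0.22, adjusted p = 0.018). Gusb, the lysosomal enzyme that cleaves glucuronides, had 6.47 to 6.88 in uninjured mice and 8.34, 8.83, 7.10 and 9.002 at day 5, and rose by 1.59 (SE 0.38, adjusted p = 0.030). Among 11 genes of PAPS supply, sulfate transport and sulfatases, 1 was called lower and 4 higher at 0.05 (background 5.8% and 8.55%). The gene called lower was the sulfate transporter Slc26a1, detected on no day 5 array and at least 1.27-fold lower there (adjusted p = 0.020), with measured means of 6.07 in uninjured mice and 5.10 at day 5. Slc26a2, another sulfate transporter, was detected on no uninjured array and was called higher (adjusted p = 0.023), with measured means of 5.34 and 6.08. The 4 that rose also included Tpst2, a tyrosylprotein sulfotransferase of the Golgi, at 1.47 (SE 0.31, adjusted p = 0.020), and Arsa, the lysosomal arylsulfatase, at 0.98 (SE 0.23, adjusted p = 0.028). Tpst1, with a measured change of 1.47, was detected on no uninjured array. Both Tpst enzymes and Arsa act on proteins or in lysosomes and not on the soluble substrates of Sult enzymes.

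The other conjugating enzymes were 23 genes of methyl, acetyl and amino acid conjugation and related transferases. Of these, 5 were called lower at 0.05 (background 5.8%) and 1 higher (background 8.55%), with a median of -0.78. Acsm1 and Acsm3, mitochondrial ligases that activate medium-chain and aromatic acids, fell by 2.19 (SE 0.55, adjusted p = 0.035) and 1.51 (SE 0.36, adjusted p = 0.029). Hpgds, the hematopoietic prostaglandin D synthase, is by structure a sigma class glutathione transferase, although its symbol lies outside the Gst genes. Its levels were 5.73, 5.54, 5.57 and 5.26 in uninjured mice and 6.995, 7.22, 7.03 and 7.31 at day 5. The groups lay far apart, with every day 5 mouse close to the others, and it rose by 1.61 (SE 0.13, adjusted p = 0.0016), or 3.06-fold, the single gene of this list called at 0.01. It was detected on 1 uninjured array and on all 4 day 5 arrays.

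The transporters that carry conjugates out of the cell went in both directions. Of 9 measured, 3 were called lower and 2 higher at 0.05 (background 5.8% and 8.55%). Abcc2, the apical multidrug resistance protein that exports glutathione and glucuronide conjugates, had levels of 8.62, 8.76, 8.75 and 8.59 in uninjured mice and 7.05, 6.54, 7.49 and 5.77 at day 5. Every day 5 mouse was clearly below the uninjured mice, and it fell by 1.97 (SE 0.32, adjusted p = 0.010), or 3.92-fold. Slc47a1, the apical MATE exporter of organic cations, fell by 1.78 (SE 0.48, adjusted p = 0.045). Abcc3, a basolateral exporter of glucuronides, had 4.79 to 5.37 in uninjured mice, where it was not detected, and 7.09, 7.24, 6.33 and 7.73 at day 5. It rose at least 1.62-fold (adjusted p = 0.006) and was called at 0.01.

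Regulators known to switch on these enzymes were also measured. Nrf2 drives the oxidant response that induces many Gst and Ugt genes. Of 15 genes of its pathway and targets, 1 was called lower at 0.05 (background 5.8%) and 0 higher (background 8.55%), with a median of -0.13. A single call among 15 lies near the background. The gene called was Mafg, a small Maf partner of Nrf2, which fell by 1.17 (SE 0.23, adjusted p = 0.017). Of 17 other regulators, 4 were called lower and 1 higher at 0.05 (background 5.8% and 8.55%). Ppargc1a, a coactivator of mitochondrial genes, fell by 1.46 (SE 0.38, adjusted p = 0.039). Esrra, an orphan receptor that works with it, fell by 0.98 (SE 0.20, adjusted p = 0.018). Rxra, the shared partner of many nuclear receptors, fell by 0.85 (SE 0.22, adjusted p = 0.036), with groups that overlapped and detection on 2 uninjured arrays and 1 day 5 array.

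**Figure D4:**
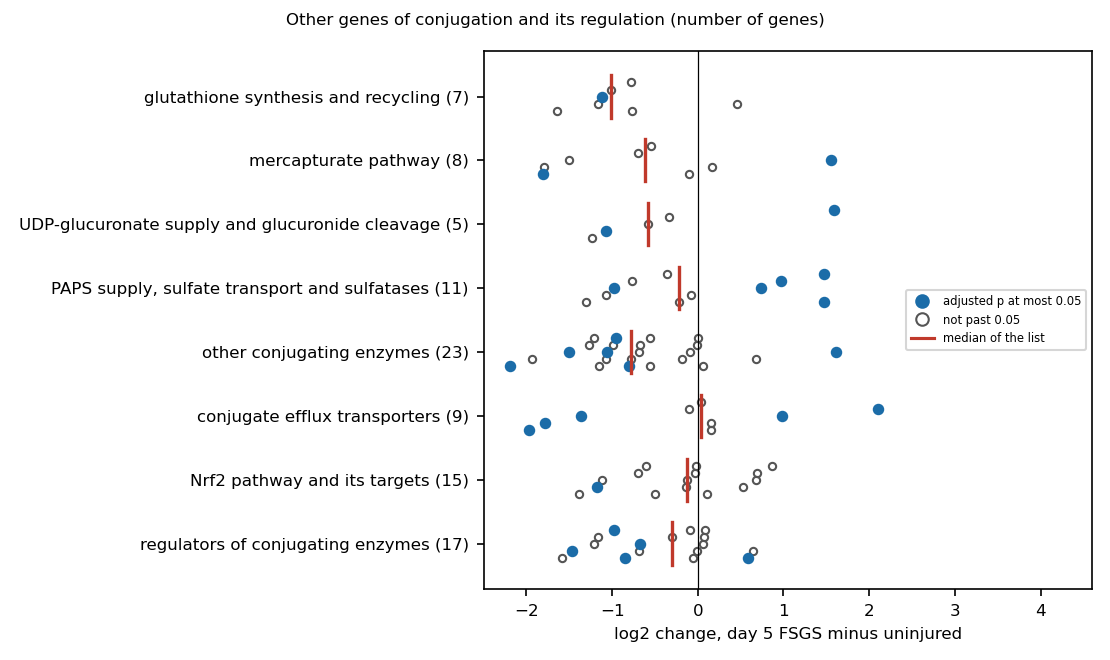
Change of the other genes of conjugation, as the log2 day 5 mean minus uninjured mean (x axis), with 1 list per line (y axis, number of genes measured in brackets) and 1 point per gene. Filled points passed an adjusted p of 0.05 and red bars mark the list medians, from -1.02 for glutathione synthesis and recycling to 0.04 for the efflux transporters.

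The promoters of the enzymes were searched for motifs of these regulators, since the members had lower levels together. RefSeq windows (GRCm38.p6) from 250 bases before to 50 after the start were found for 48 of the 52 genes, 59 windows in all. The core of the antioxidant response element that Nrf2 binds, TGACNNNGC on either strand, stood in 3 windows (Gsta3, Gstm5 and Mgst1), or 5.08% against 12.4% of all 32851 windows. The HNF1 palindrome (GTTAAT and ATTAAC with 1 base between them), bound by a factor that drives many proximal tubule genes, stood in 0 windows of the members and in 0.00913% of all. A shorter form (GTTAAT, any base, ATT, any base and A), searched on both strands after the palindrome had given no match, also matches the palindrome itself. It stood in 2 windows (Sult1d1 and Ugt1a10), or 3.39% against 0.155% of all. TATAAA stood in 12 windows of 11 genes, or 20.3% against 13.6%. A match is a description of letters and not a bound site.

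The windows of Gstm5 and Mgst1, which also had lower means at day 5, are not shown. The windows of 3 genes are shown as examples of the short HNF1 form and the antioxidant response element core, with those letters in capitals. They lie at chr5:87568957-87569256 on the minus strand (Sult1d1), chr1:88055161-88055460 on the plus strand (Ugt1a10, the short HNF1 form read on the opposite strand) and chr1:21240335-21240634 on the plus strand (Gsta3, the antioxidant response element core).
Sult1d1: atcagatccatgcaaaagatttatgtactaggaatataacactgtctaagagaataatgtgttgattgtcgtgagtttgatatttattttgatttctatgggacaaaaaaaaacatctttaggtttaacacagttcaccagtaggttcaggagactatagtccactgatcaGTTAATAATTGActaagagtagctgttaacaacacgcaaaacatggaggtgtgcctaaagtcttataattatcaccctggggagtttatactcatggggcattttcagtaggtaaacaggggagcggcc
Ugt1a10: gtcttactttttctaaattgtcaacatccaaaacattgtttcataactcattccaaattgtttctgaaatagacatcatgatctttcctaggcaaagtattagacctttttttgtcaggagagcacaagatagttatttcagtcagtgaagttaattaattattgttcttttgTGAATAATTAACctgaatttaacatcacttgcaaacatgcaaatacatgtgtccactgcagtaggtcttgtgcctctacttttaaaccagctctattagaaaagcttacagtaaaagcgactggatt
Gsta3: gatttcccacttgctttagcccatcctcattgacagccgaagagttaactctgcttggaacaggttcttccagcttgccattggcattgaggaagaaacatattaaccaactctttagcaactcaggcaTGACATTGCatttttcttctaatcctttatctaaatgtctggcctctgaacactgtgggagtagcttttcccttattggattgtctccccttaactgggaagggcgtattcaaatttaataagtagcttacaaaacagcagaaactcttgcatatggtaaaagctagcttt
Sult1d1 and Ugt1a10 changed by -1.55 and -1.09, and Gsta3 by -1.19. None of the 3 passed an adjusted p of 0.05 in all 8 mice.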

How the data were processed

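Transcript levels were measured in ZsGreen-sorted CoRL of 8 mice, 4 per group. The authors deposited 2 tables of the same arrays, one with an intensity and a detection p-value for each of 25697 probes, not normalized, and one with the authors' processed signal after variance stabilization and quantile normalization with lumi, whose version is not given in the sources used here. The latter table served as an alternative. The platform's annotation gave the symbols, and 1719 probes are unnamed here.

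The intensities were turned into log2 levels by neqc of limma 3.58.1 under R 4.3.3 (normexp fitted with the detection p-values, offset 16, quantile). Probes of a gene were averaged. Groups were compared with lmFit and eBayes, with group as the only term, with Benjamini-Hochberg adjustment over all 16593 genes. The script was tested on simulated data. Changes of dim genes are compressed by background and less precise. Where a gene was detected on no array of a group, a fold is given as a bound against the lowest level of a detected probe.

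Genes are named if called at 0.05, or if among the 4 largest changes of a family within genes detected on all 4 arrays of either group. Of each other list up to 3 called genes are named. Other members named beside these were added for their class. The members and lists were chosen with earlier results of these data known. Alternatives covered background, scaling, detection, the choice of probe, variances, array weights, the replicate number as a block, leaving out each mouse, the methods' Bayesian test (CyberT, rebuilt with a confidence of 10) and the methods' t-test. The replicate numbers come from different mice and did not pair the samples. Sequences are from RefSeq. Figures were drawn with matplotlib 3.10.9.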

Additional observations from a re-analysis of the deposited data

How the results depend on the processing

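Every one of the 14 named members kept the sign of its change under each alternative run. No member was called higher at 0.01 or 0.05 in any of them. The number called lower at 0.01 was 0, and it was 2 of 29 tested with only probes detected on all 4 arrays of either group (3.1% of all genes tested were called), 3 with array weights (2.85%), 4 after scaling to a common 75th percentile (2.69%), 12 with the methods' Bayesian test (3.83%), 13 with that test on the authors' processed table (4.25%) and 6 (3.79%) without uninjured replicate 1 and day 5 FSGS replicate 3 together. It was 5 at a threshold of 0.05 (5.8%). With 1 mouse left out it was 10 without day 5 FSGS replicate 3 (4.28%) and 0 without any other (0% to 0.0121%). The number called lower at 0.05 was 5, and it was 0 with the methods' t-test (0.0121% of all genes), 1 after scaling to a common median (2.41%), 8 without background correction (6.85%), 8 with trend and robust variances (5.58%), 9 with the authors' processed table (6.79%), 15 with array weights (10.1%), 18 of 29 with the detection filter (16.6%), 21 with the Bayesian test (7.42%), 36 after scaling to a common 75th percentile (26.9%), 23 with the authors' table and the Bayesian test (8.15%) and 20 without both mice (10.8%). With 1 mouse left out it ran from 0 without day 5 FSGS replicate 2 (1.02%) to 21 without day 5 FSGS replicate 3 (10.5%). It was 1 or 2 without any other (1.84% to 3.97%). Scaling to a common 75th percentile moved the median of all genes to -0.52.

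The replicate numbers did not pair the mice (correlations of deviations 0.06, -0.09, -0.07 and 0.11). With the replicate block, 0 members were called lower at 0.01 (0% of all genes) and 1 (1.92%) at 0.05, Gsto2 (2.81% of all genes).

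The Gst median of -0.72 was -1.23 with the detection filter and -0.95 to -0.64 with 1 mouse left out. The Mgst median of -0.49 was -0.24 without background correction, -0.16 after median scaling, -0.23 with the authors' table and -0.59 to -0.39 with 1 mouse left out. The Ugt median of -0.73 was -0.33 without background correction, -0.30 with the authors' table, -1.30 with the detection filter and -0.77 to -0.47 with 1 mouse left out. The Sult median of -0.02 was -0.25 and -0.60 after scaling to a common median and 75th percentile, -1.41 with the detection filter and -0.06 to 0.00 with 1 mouse left out. The detection filter removed Gsto2, Gstm4 and the 21 undetected members, which limits the family medians to brighter genes. The cause of the other shifts was not tested.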
